A study of Mus musculus with 6 samples.

Results

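The genes described here are 6 CXC chemokine ligands (Ppbp, Cxcl1, Cxcl2, Cxcl3, Cxcl5 and Pf4) and 2 receptors carried by neutrophils (Cxcr2 and Csf3r). They were chosen by name, and all of their probe sets in the deposited signal sheet were taken by gene ID, which gave 10 of 45101 probe sets and 8 of 18096 named genes. They were measured on Affymetrix arrays in epithelium of the mouse conjunctiva, the mucosa behind the eyelid, on 3 arrays of Spdef +/+ mice and 3 of Spdef -/- mice. Both groups were of the C57BL/6 strain and 8 weeks old with no treatment named, and the Spdef -/- mice lacked Spdef, which encodes a transcription factor needed by goblet cells. The arrays are biological replicates by their labels, and each held RNA pooled from an eye of 1 male and an eye of 1 female. The tissue was cut from 6 µm sections with a laser, taking the 40% of the epithelium that lay nearest the fornix. How the Spdef allele was made was not stated in the labels.

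CXC chemokines are small secreted proteins that guide leukocytes along a gradient. Those with a Glu-Leu-Arg motif near their amino end, here Ppbp, Cxcl1, Cxcl2, Cxcl3 and Cxcl5, bind the receptor Cxcr2 on neutrophils and draw these cells out of blood. Pf4 has no such motif and is known as a product of platelet granules, in which Ppbp is also stored. Csf3r is the receptor for Csf3 (G-CSF), the growth factor of neutrophils. At mucosal surfaces, epithelial cells stimulated through NF-kappaB make several of the ligands of Cxcr2.

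The bases before the transcription start are shown for 5 ligands of 1 gene cluster on chromosome 5, of which 4 rose and Pf4 fell, so that the letters can be set beside the signals. Entries of the RefSeq promoter table (build GRCm38.p6) matched 7 of the 8 genes, all but Cxcl5. The 250 bases before the start were searched on both strands for an NF-kappaB motif (GGG, any 2 bases, then TTTCC), an AP-1 motif (TGANTCA) and a TATA box (TATAAA). No match overlapped one of another motif. Capitals mark the NF-kappaB matches.
Ppbp, chr5:90768268-90768517, plus strand: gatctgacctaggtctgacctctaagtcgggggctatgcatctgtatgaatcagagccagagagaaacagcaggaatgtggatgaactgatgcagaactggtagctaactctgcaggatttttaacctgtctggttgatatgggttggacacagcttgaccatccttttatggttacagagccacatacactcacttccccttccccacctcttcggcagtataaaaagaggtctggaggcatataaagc
Pf4, chr5:90772185-90772434, plus strand: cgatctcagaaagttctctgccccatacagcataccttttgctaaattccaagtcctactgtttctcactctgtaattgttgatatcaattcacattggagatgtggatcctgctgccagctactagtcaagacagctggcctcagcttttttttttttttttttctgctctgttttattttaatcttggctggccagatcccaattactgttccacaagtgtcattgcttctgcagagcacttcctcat
Cxcl3, chr5:90785851-90786100, plus strand: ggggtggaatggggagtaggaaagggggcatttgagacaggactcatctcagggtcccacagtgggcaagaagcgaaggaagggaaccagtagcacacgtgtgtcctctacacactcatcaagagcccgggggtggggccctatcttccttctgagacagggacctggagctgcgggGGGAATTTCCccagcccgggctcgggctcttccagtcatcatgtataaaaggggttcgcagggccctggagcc
Cxcl1, chr5:90890995-90891244, plus strand: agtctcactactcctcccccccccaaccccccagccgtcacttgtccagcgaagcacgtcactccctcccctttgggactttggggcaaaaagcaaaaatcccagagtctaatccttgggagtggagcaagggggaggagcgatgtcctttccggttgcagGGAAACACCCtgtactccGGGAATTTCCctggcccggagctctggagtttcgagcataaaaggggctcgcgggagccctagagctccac
Cxcl2, chr5:90903649-90903898, plus strand: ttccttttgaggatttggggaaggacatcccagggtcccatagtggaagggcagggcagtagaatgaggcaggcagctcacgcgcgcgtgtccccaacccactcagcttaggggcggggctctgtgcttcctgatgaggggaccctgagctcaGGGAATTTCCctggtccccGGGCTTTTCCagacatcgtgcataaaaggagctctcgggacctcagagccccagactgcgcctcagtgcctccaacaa
The NF-kappaB letters were present before Cxcl1, Cxcl2 and Cxcl3, and in 1.41% of the 32851 promoter entries of the table. The form GGGAATTTCC lay 73 to 64 bases before the start of Cxcl3, 71 to 62 before that of Cxcl1 and 97 to 88 before that of Cxcl2. Cxcl1 held a further match on the opposite strand (GGAAACACCC), 89 to 80 bases before the start, and Cxcl2 held GGGCTTTTCC at 78 to 69 bases. These letters were not in the windows of Ppbp, Pf4, Cxcr2 or Csf3r. The Ppbp window held the AP-1 letters as TGAATCA, at 204 to 198 bases before the start, as did 6.75% of all entries. The TATA box letters lay 30 to 25 bases before the start in both Ppbp and Cxcl3, and again at 8 to 3 bases in Ppbp, and were in 12.4% of all entries. A match describes the letters only.

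The labels were checked first. In Spdef +/+ the signal of Spdef itself was 801, 689 and 587, each Present, and in Spdef -/- it was 1.00, 3.62 and 2.94, each Absent. All 12 conjunctival epithelial markers listed for this work (among them Krt4, Krt13, Epcam and Pax6) were called Present on every array. The number of probe sets called Present was 24646 to 24889 on Spdef +/+ arrays and 23346 to 23425 on Spdef -/- arrays. Signals are in linear dChip units, and differences are of log2 signals, Spdef -/- minus Spdef +/+, with n = 3 arrays per group throughout. Tests are limma, two-sided, with Benjamini-Hochberg adjustment over 11899 genes called Present on at least 3 arrays. In tissue RNA, more cells of a type and more RNA per cell cannot be told apart.

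The ligands of Cxcr2 were higher in Spdef -/- epithelium by between 3.50-fold and 508-fold, Csf3r was 19.5-fold higher, and Pf4 was 1.93-fold lower. Of the 8 genes, 7 passed the detection filter. Of these, 6 were called higher, against 15.8% of all tested genes, and 1 was called lower, against 24.0%. Among the 6, 3 (Ppbp, Cxcl2 and Csf3r) were Present on no Spdef +/+ array and passed the filter only through the Spdef -/- arrays. A rise of at least 10-fold was measured for 5 of the 6, and for 0.252% of all tested genes. A probe set that was Present on none of a group's arrays has no measured level there, so its fold rests on signals not called Present. For Ppbp, Cxcl2 and Csf3r these signals all lay above their array's lowest Present signal, so none was raised. Such folds are point estimates against an unmeasured level and are not lower limits. All Spdef -/- signals lay above all Spdef +/+ signals in 22.6% of tested genes, and below them in 32.7%.

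**Figure D1:**
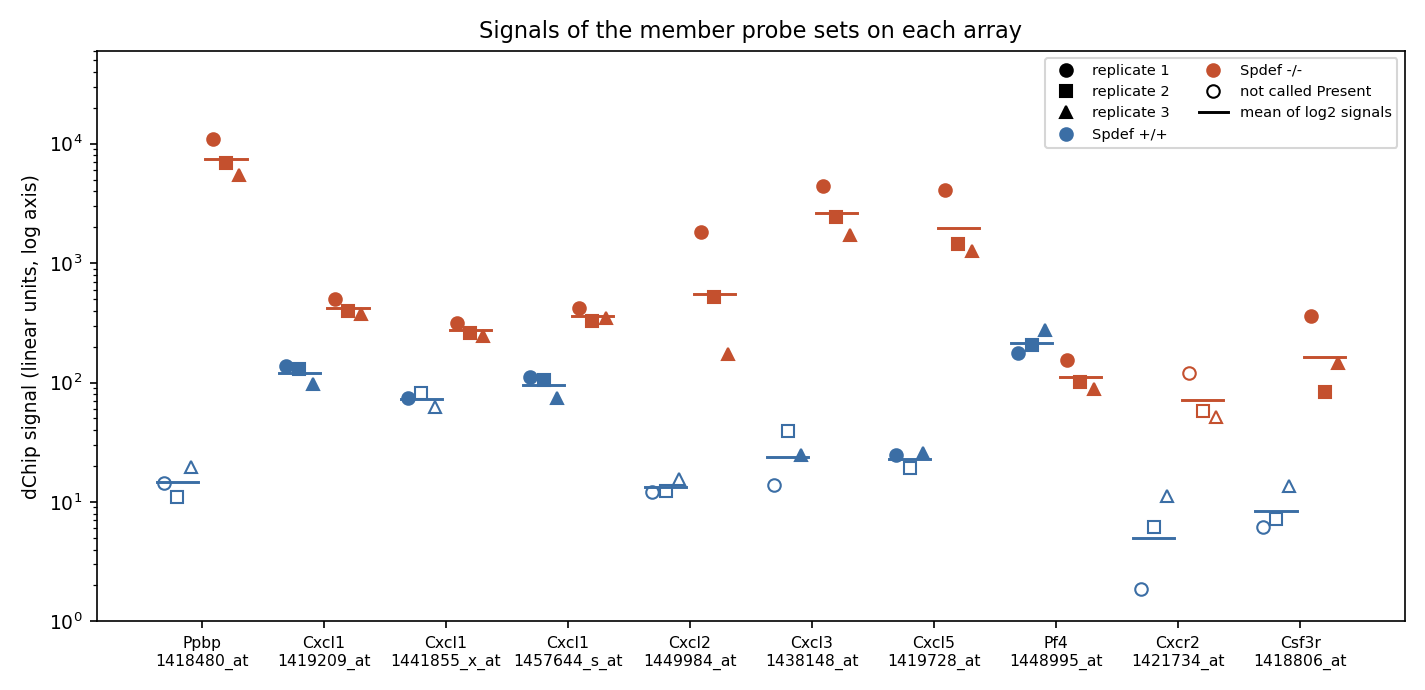
Signal of each of the 10 probe sets on each array, on a log axis, with Spdef +/+ arrays in blue and Spdef -/- arrays in red. Open symbols were not called Present, and bars are the means of log2 signals. The groups do not overlap for any probe set, and Pf4 alone lies lower in Spdef -/-.

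Ppbp encodes the precursor that is cleaved to the neutrophil attractant NAP-2. Its probe set 1418480_at read 14.4, 11.1 and 19.7 in Spdef +/+, all Absent, and 10983, 6874 and 5467 in Spdef -/-, all Present. The groups were far apart, with no measured level in Spdef +/+. On the log2 scale it was 8.99 ± 0.31 (SE) higher, 508-fold with a 95% interval from 306-fold to 843-fold (adjusted p = 3.59e-05).

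Cxcl3, which encodes a close relative of Cxcl1 and Cxcl2, was read by probe set 1438148_at. Its signals were 13.8, 39.3 and 24.8 on the Spdef +/+ arrays, Present on the last of these, and 4383, 2412 and 1726 on the Spdef -/- arrays. The lowest Spdef -/- signal was 43.9 times the highest Spdef +/+ signal. The log2 difference was 6.79 ± 0.46 (SE), 111-fold with a 95% interval from 51.2-fold to 239-fold (adjusted p = 0.000249). The Spdef +/+ mean behind it rests on Absent signals on 2 of 3 arrays.

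Cxcl5, known in mice as LIX and made by mucosal epithelium, was read by probe set 1419728_at. Its signals were 24.5, 19.3 and 25.5 on the Spdef +/+ arrays, Present on the first and the last, and 4071, 1457 and 1252 on the Spdef -/- arrays. Every Spdef -/- array lay above every Spdef +/+ array, and replicate 1 stood above the other Spdef -/- arrays. Cxcl5 had a log2 difference of 6.41 ± 0.43 (SE), 85.0-fold with a 95% interval from 41.3-fold to 175-fold (adjusted p = 0.000249).

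Cxcl2, also called MIP-2, is a ligand that macrophages and epithelium release early in inflammation. Its probe set 1449984_at read 12.1, 12.4 and 15.7 in Spdef +/+, none Present, and 1836, 525.0 and 173 in Spdef -/-, all Present. It had the widest spread of the ligands within Spdef -/-, with an SD of 1.71 on the log2 scale. Its log2 difference was 5.37 ± 0.78 (SE), 41.5-fold with a 95% interval from 11.4-fold to 151-fold (adjusted p = 0.00299). The fold was 22.7 without Spdef -/- replicate 1 and 74.0 without Spdef -/- replicate 3.

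Cxcl1, also called KC, was the ligand of Cxcr2 that was Present on all arrays of both groups. Its brightest probe set, 1419209_at, had signals of 138, 130.0 and 97.5 in Spdef +/+ and of 505, 397 and 375 in Spdef -/-. The groups were separate, and the spread within each was narrow. The log2 difference was 1.81 ± 0.17 (SE), 3.50-fold with a 95% interval from 2.63-fold to 4.67-fold (adjusted p = 0.000778). The other probe sets of the gene differed by a like amount, 3.77-fold for 1441855_x_at and 3.79-fold for 1457644_s_at. Of these, 1441855_x_at was Present on only 1 of the 3 Spdef +/+ arrays. Both were designed on the same expressed sequence tag, per the probe descriptions, and are not independent of each other. Cxcl1, Cxcl2 and Cxcl3 are close paralogs, and cross-hybridization between them was not tested.

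Pf4, the platelet factor that is also made by some macrophages, went the other way. Its probe set 1448995_at had signals of 178, 207 and 276 in Spdef +/+ and of 156, 102 and 88.6 in Spdef -/-, all Present. The groups did not overlap, but the lowest Spdef +/+ signal was only 1.14 times the highest Spdef -/- signal. The log2 difference was -0.95 ± 0.25 (SE), 1.93-fold lower with a 95% interval from 1.28-fold to 2.92-fold (adjusted p = 0.0245). The call was lost when Spdef +/+ array 2 (adjusted p = 0.0599) or 3 (0.0707), or Spdef -/- array 2 (0.0691) or 3 (0.0604), was left out, and with no detection filter (0.0668).

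Of the receptors, Csf3r was called higher and Cxcr2 was not tested. The probe set of Csf3r, 1418806_at, had signals of 6.12, 7.24 and 13.6 with Absent calls in Spdef +/+, and of 363, 83.8 and 146 with Present calls in Spdef -/-. The groups were separate, and replicate 1 was the highest of the Spdef -/- arrays. Csf3r had a log2 difference of 4.28 ± 0.56 (SE), 19.5-fold with a 95% interval from 7.69-fold to 49.2-fold (adjusted p = 0.00205). Cxcr2 (1421734_at) was Absent on all 6 arrays, with signals of 1.86, 6.14 and 11.2 in Spdef +/+ and of 121, 57.9 and 51.9 in Spdef -/-. These do not overlap, but with every call Absent no fold is given. In a fit without the detection filter its adjusted p was 0.0230. No probe set was matched to Cxcr1, the other receptor of this kind.

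The size of these rises depends on how low signals are treated, since the Spdef +/+ signals are near background. With a pseudocount of 32 the rise was 159-fold for Ppbp, 46.8-fold for Cxcl3, 36.1-fold for Cxcl5, 13.2-fold for Cxcl2 and 4.92-fold for Csf3r, and with a floor of 16 that of Csf3r was 10.3-fold. All 6 rises passed the test under each of the 18 alternatives that were run. None of the 10 probe sets is among the 153 in the authors' deposited table, which kept probe sets with a lower bound of the fold over 3, a difference over 20 and p at most 0.01. Csf3, the ligand of Csf3r, is in the authors' deposited table, with a fold of 12.88 and p = 0.009997.

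The ligand genes sit side by side on chromosome 5. In the order of the supplied annotation the protein-coding genes run Cxcl5, Ppbp, Pf4, Cxcl3, Cxcl15, Cxcl1 and Cxcl2. Of these 7, 5 were called higher, against 15.8% of all tested genes. Cxcl15 was not tested, and Ppbp and Cxcl2 passed the filter only through the Spdef -/- arrays. Pf4 lies between Ppbp and Cxcl3, the genes with the largest rises in the row, and fell. Cxcl15, the lung chemokine gene also called lungkine, was Absent on all 6 arrays, with signals of 20.1 to 22.0 in Spdef +/+ and of 11.6 to 23.2 in Spdef -/-. Just outside the row, Mthfd2l on the Cxcl2 side was not called (log2 difference -0.41 ± 0.19 SE, adjusted p = 0.122). Rassf6 on the Cxcl5 side was 0.35 ± 0.11 (SE) higher on the log2 scale (adjusted p = 0.0440), a call lost without any 1 of the 6 arrays (adjusted p from 0.0528 to 0.118). The neighbouring genes were looked at after their values were seen.

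**Figure D2:**
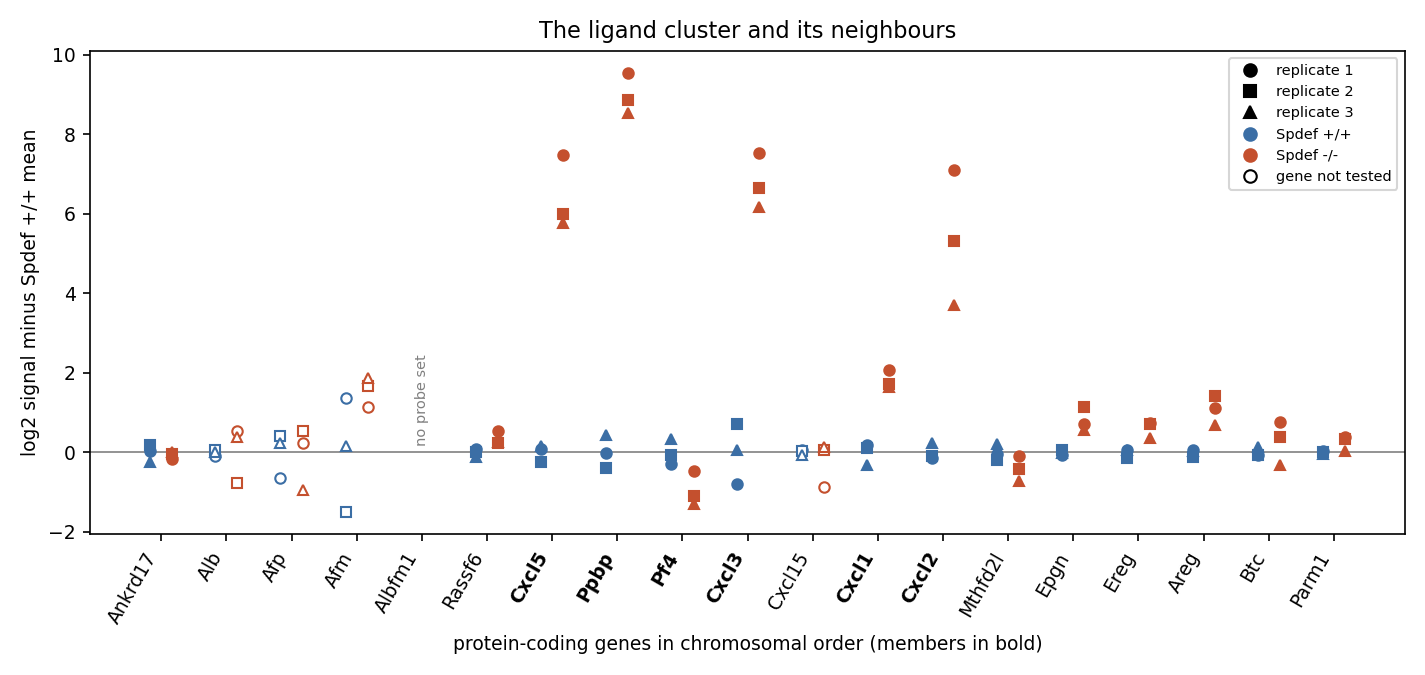
Log2 signal on each array minus the Spdef +/+ mean, for the ligand cluster and 6 protein-coding genes on each side in chromosomal order. Spdef -/- arrays are red, Spdef +/+ arrays blue, and open symbols mark genes that were not tested. Cxcl5, Ppbp, Cxcl3, Cxcl1 and Cxcl2 stand above 0 on all Spdef -/- arrays, while Pf4 stands below it.

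Within Spdef -/-, the genes varied together over the arrays. Replicate 1 had the highest Spdef -/- signal for 8 of 8 genes, Pf4 and Cxcr2 included, whereas it was highest for 34.1% of all tested genes and for 36.7% of the genes called higher. Relative to the mean of the other Spdef -/- arrays, replicate 1 was 1.31 times as bright for Cxcl1, 1.78 times for Ppbp, 2.12 times for Cxcl3, 3.01 times for Cxcl5, 3.16 times for Csf3r and 5.26 times for Cxcl2. Replicate 3 was the lowest Spdef -/- array for 6 of the 7 tested genes, and replicate 2 was for Csf3r. How often replicate 3 was lowest over all tested genes was not counted. Without replicate 1 the 6 rises were still called. The rise of Il1b, an inducer of these ligands, was 8.97-fold with this array and 5.63-fold without it.

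**Figure D3:**
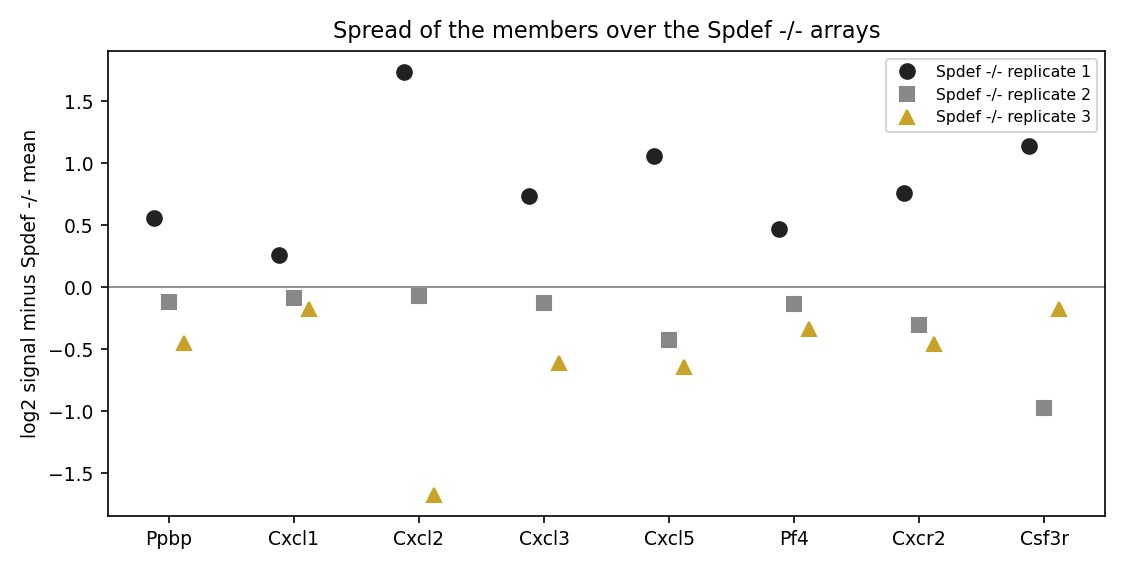
Log2 signal of each gene on each Spdef -/- array minus the mean of the 3 Spdef -/- arrays. Replicate 1 lies above 0 for all 8 genes, by 0.26 for Cxcl1 to 1.74 for Cxcl2.

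Cytokines listed as inducers of the ligands, with Csf3 counted among them, were higher where they could be tested. Of 15 listed, 9 had a probe set, 5 were tested and all 5 rose, with a median log2 difference of 2.13 against -0.06 over all tested genes. Here and for the lists that follow, the shares over all tested genes are 15.8% called higher and 24.0% called lower. Csf3, which releases neutrophils from the bone marrow, had signals of 33.4, 30.6 and 27.7 in Spdef +/+ and of 465, 334 and 382 in Spdef -/-, a 12.8-fold rise (adjusted p = 4.83e-05) that was 6.75-fold with a pseudocount of 32. The alarmin Il33 rose 3.97-fold, and the interleukin-1 genes Il1b and Il1a rose 8.97-fold and 4.38-fold. Il17a, the T cell cytokine that drives epithelial Cxcl1 and Csf3, rose 2.31-fold (adjusted p = 0.0408). That call was lost when Spdef +/+ array 2 (adjusted p = 0.0989) or 3 (0.111), or Spdef -/- array 1 (0.0849) or 3 (0.0553), was left out, without the detection filter (0.0977), after quantile normalization (0.0555) and with array weights (0.0644). Il6 and Csf2 were Present on no array. Tnf was Present on 2 of the 6 arrays and not tested, with signals of 17.3 to 32.6 in Spdef +/+ and of 14.7 to 99.9 in Spdef -/-. Il23a, also not tested, was Present on 2 Spdef +/+ arrays and on no Spdef -/- array. Its signals were 10.6 to 27.1 in Spdef +/+ and 25.4 to 31.1 in Spdef -/-.

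Of 15 regulators of NF-kappaB and of chemokine mRNA stability, 6 rose, none fell and 9 were not called (median log2 difference 0.36). Those with the smallest p were Zc3h12a and Zfp36, whose proteins promote decay of chemokine transcripts, Tnfaip3, which restrains NF-kappaB, and Nfkb1, a subunit of it. They rose 2.71-fold, 1.81-fold, 3.52-fold and 1.32-fold. Of 21 tested genes that signal below the receptors, 8 rose and 1 fell (median 0.28), against 15.8% and 24.0% of all tested genes. Socs3, a feedback inhibitor induced through Stat3, went from 107, 118 and 163 to 1217, 704 and 897, a 7.21-fold rise (adjusted p = 0.000525). The phosphoinositide kinase subunit genes Pik3cg and Pik3r5 rose 1.78-fold and 3.11-fold (2.004-fold for Pik3r5 with a pseudocount of 32), and Arrb1, which desensitizes chemokine receptors, fell 2.55-fold (adjusted p = 0.000599).

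Of 5 tested CXC ligands outside the set, 2 rose and 1 fell (median 0.56), few genes to set against the 15.8% and 24.0% of all tested genes. Cxcl13, the B cell attractant, rose 9.40-fold (adjusted p = 0.000222) and Cxcl16, the ligand of Cxcr6, 1.48-fold, while Cxcl17, a mucosal chemokine, fell from 6690, 6636 and 5842 to 4222, 3868 and 3352 (1.68-fold, adjusted p = 0.00342). Cxcl9, Cxcl11, Cxcl14 and Cxcl15 were Present on no array. Of 7 tested CXC and atypical receptors, 2 rose (median 0.11), the lymphocyte receptors Cxcr5 (2.10-fold) and Cxcr6 (2.24-fold). Cxcr5 was Present on no Spdef +/+ array and passed the filter only through the Spdef -/- arrays. Ackr1, which carries chemokines across venules, had signals of 42.8, 76.0 and 77.2 and of 60.6, 87.4 and 82.2 and was not called (adjusted p = 0.455). Of 10 tested CC ligands, 4 rose and 3 fell (median 0.71). Ccl19, which attracts T cells and dendritic cells, rose 5.97-fold, and Ccl25 2.76-fold. Ccl9, an attractant of myeloid cells, fell 3.97-fold and Ccl27a, a skin chemokine, 1.67-fold. Ccl2, Ccl7 and Ccl20 were among 6 CC ligands Present on no array.

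Of 12 tested genes for the adhesion and passage of leukocytes, 6 rose and none fell (median 0.89), against 15.8% and 24.0% of all tested genes. Selp (P-selectin), stored in endothelium and platelets, rose 7.15-fold (3.31-fold with a pseudocount of 32), the hyaluronan receptor gene Cd44 rose 2.81-fold, and Selplg, whose product is the ligand of P-selectin, rose 2.18-fold. The endothelial Icam1 and Sele and the neutrophil integrin genes Itgam and Itgb2 were not called. Itgal, another integrin gene of the list, rose 2.29-fold (adjusted p = 0.00459).

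**Figure D4:**
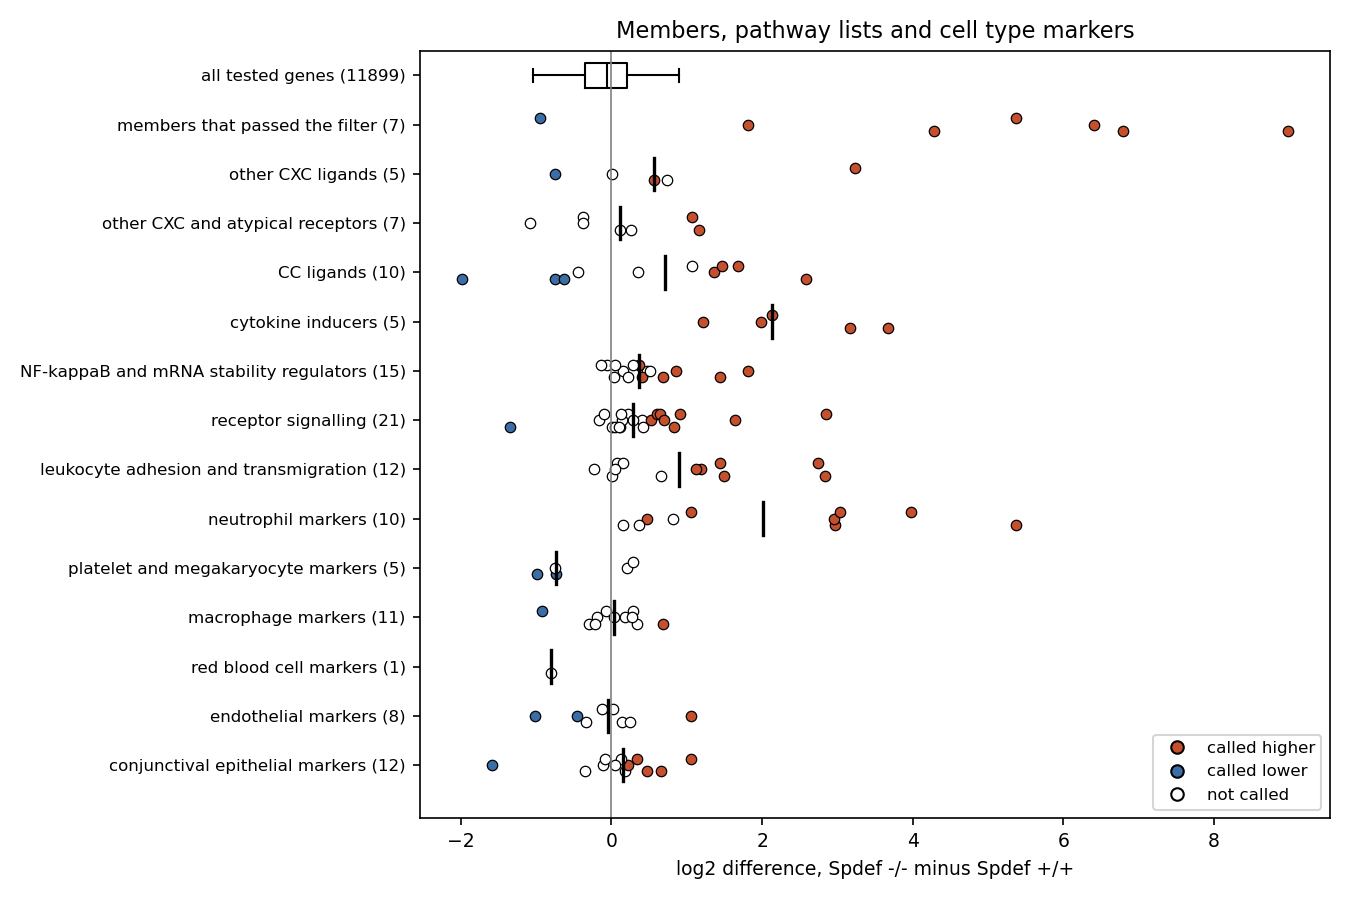
Log2 difference, Spdef -/- minus Spdef +/+, of the 7 genes that passed the filter and of each tested member of the other lists. Red points were called higher, blue lower and white not called, black ticks are list medians, and the box shows the quartiles of all 11899 tested genes with whiskers from the 5th to the 95th percentile. Platelet and megakaryocyte markers include no red point, while 7 of 10 neutrophil markers are red.

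Markers of neutrophils rose in part. Of 23 listed, 21 had a probe set, 10 were tested, 7 rose and none fell (median 2.01). S100a9 and S100a8, the calprotectin genes that stressed epithelium also expresses, rose 41.3-fold and 15.8-fold, Cd177, a surface protein of neutrophils, 7.85-fold (4.10-fold with a pseudocount of 32), and Ncf1, an NADPH oxidase subunit gene, 2.09-fold. The C-type lectin receptor gene Clec4d, which lies outside the naming rule, had signals of 16.1, 44.2 and 21.5 in Spdef +/+ and of 594, 150.2 and 79.3 in Spdef -/- (adjusted p = 0.0224). Its call was lost when Spdef +/+ array 1 (adjusted p = 0.0731) or 3 (0.0681) was left out and without the detection filter (0.0624), and its 7.74-fold rise was 4.40-fold without Spdef -/- replicate 1 and 12.0-fold without Spdef -/- replicate 3. Clec4e and Mmp9, also outside that rule, are among the 7. Clec4e, a lectin receptor gene, was Absent on all Spdef +/+ arrays and passed the filter only through Spdef -/-. Its call was lost with a floor of 16 (adjusted p = 0.111). Without the filter, another probe set stood for the gene, Present on only 1 Spdef -/- array, and was not called (adjusted p = 0.561). The Clec4e probe set of the main test had an adjusted p of 0.0537 when probe sets were tested singly with no filter. Mmp9, a gelatinase gene, lost its call under 8 alternatives (adjusted p from 0.0504 to 0.1198), 4 of them fits without 1 array. The granule genes Mpo, Elane, Prtn3 and Camp and the formyl peptide receptor gene Fpr1 were Present on no array. The signals of Mpo were 33.9 to 39.0 in Spdef +/+ and 8.89 to 16.4 in Spdef -/-. No probe set was matched to Ly6g. The summed signal of the 21 markers was 1118 to 1340 in Spdef +/+ and 11294, 5041 and 5960 on Spdef -/- replicates 1, 2 and 3, and without S100a8 and S100a9 it was 953 to 1155 and 2935, 1635 and 1577. The summed neutrophil signal was highest on replicate 1, the same Spdef -/- array as the ligands and receptors. The summed macrophage, red blood cell, endothelial and epithelial signals were also highest there, whereas that of platelet markers was highest on replicate 3. The part of neutrophils in the signals of the ligands and receptors was not tested.

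The listed markers of platelets and megakaryocytes, the cells for which Ppbp and Pf4 are best known, included none that was called higher. Selp and Vwf, also held by platelets, were in other lists and rose by 2.84 and 1.05 on the log2 scale. Of 16 listed, 15 had a probe set, 5 were tested, 2 fell and none rose (median -0.74). Gp1ba, Gp5, Gp6, Gp9, Treml1, Clec1b, Nfe2 and Gfi1b were Present on no array of either group. Itga2b, the platelet integrin gene, had signals of 536, 527 and 518 in Spdef +/+ and of 300.3, 307 and 341 in Spdef -/-, a 1.67-fold fall (adjusted p = 0.00116). Alox12, a lipoxygenase gene also active in epithelium, fell 1.98-fold. The summed signal of the 15 markers was 3709 to 3800 in Spdef +/+ and 2209 to 2271 in Spdef -/-, and most of it came from Alox12. Without Alox12 it was 959 to 1044 and 793 to 893. Without Alox12 and Itga2b the other 13 markers summed to 428 to 526 in Spdef +/+ and 486 to 552 in Spdef -/-, so the groups overlapped.

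Macrophage markers were Present in 11 of 12 cases on each array, and of 11 tested 1 rose and 1 fell (median 0.04). Cd163, whose product clears haemoglobin, fell 1.90-fold. The summed macrophage signal was 5395 to 8047 and 5618 to 7688, so the groups overlapped. Of 8 tested endothelial markers 1 rose and 2 fell (median -0.05), shares near the 15.8% and 24.0% of all tested genes. Vwf, a clotting factor of endothelium and platelets, rose 2.07-fold, the junction gene Cldn5 fell 2.02-fold, and Kdr fell 1.37-fold, a call lost without any 1 of Spdef +/+ replicates 2 and 3 and Spdef -/- replicates 1 and 3 (adjusted p from 0.0589 to 0.0738). The summed endothelial signal was 907 to 1183 and 932 to 1042. Hba-a1, the globin gene of red blood cells and the only tested marker of them, had signals of 2399.7 to 4977 and of 760.3 to 4153 and was not called (adjusted p = 0.333). The summed red blood cell signal was 2534 to 5124 and 838 to 4282. Of the 12 epithelial markers, 5 rose and 1 fell (median 0.15). Krt13 rose 2.08-fold, Krt14 1.57-fold and Krt4 1.38-fold, whereas Krt18, a keratin of simple epithelium and goblet cells, fell by 1.58 on the log2 scale.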

How the data were processed

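RNA of 6 samples was read on Affymetrix arrays. The authors deposited dChip intensity values on a linear scale for each probe set, with a detection call of the other kind (Present, Marginal or Absent), per the file headers. Normalization and background methods: not given in the sources used here. A second deposited table held the same values, with 0 differences. A table of comparisons, also deposited by the authors, has score values (signed folds and differences) and an unadjusted p-value. Its 6 array columns were not used.

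Probe sets were named by gene ID or accession through the supplied RefSeq gene table (GRCm38.p6). A further 585 that matched several genes, and 7594 with no symbol (controls among them), were left out of the tests. After a floor of 1, signals were put on the log2 scale. Genes were tested through the probe set with the highest mean among those Present on at least 3 of 6 arrays. The test was limma 3.58.1 (R 4.3.3, lmFit and eBayes, threshold 0.05). Precision is limited by the number of arrays, with a median residual SD of 0.14 (log2). The procedure was tested on simulated data.

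The genes and lists were chosen with earlier results of these data known. Genes named are the 8 of the set, Spdef, from each list the called genes ranking in the top 4 by p (or, with no call, the 2 brightest), Csf3, Cxcr1, Ly6g, Mpo, Itga2b and Ackr1, and the 5 genes most like Ppbp. Others were named after their values were seen, and some genes that the rule names are not reported here. Same-numbered arrays were not treated as pairs. Their deviations had correlations from -0.09 to -0.01, and those of differently numbered arrays ran from -0.03 to 0.09. Such values cannot show whether the samples were matched. Alternatives varied the filter, scaling, floor, variance model, replicate block, probe set choice and arrays. A fit of probe sets singly with no filter was added after the data were seen.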

Additional observations from a re-analysis of the deposited data

How the results depend on the processing

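Under the 18 alternatives the 6 called rises (Ppbp, Cxcl1, Cxcl2, Cxcl3, Cxcl5 and Csf3r) kept their direction and passed the test. The fall of Pf4 (log2 difference -0.95) kept its direction but missed the threshold without the detection filter (-0.95, adjusted p = 0.0668; probe sets singly, 0.0857) and with the replicate number as a block (-0.95, adjusted p = 0.0716), where 0 genes of the set were called lower in place of 1. Leaving out each array in turn gave log2 differences of Pf4 from -1.19 to -0.77, and 0 to 1 genes of the set called lower. By their labels, same-numbered arrays share only a number, and the block moved no other call of the set. Cxcr2 entered the test only without the filter (log2 difference 3.82, adjusted p = 0.0230; probe sets singly, 0.0319). Over all genes, 1878 were called higher and 2850 lower. With probe sets tested singly, 2908 and 4361 probe sets were called, from more features tested, and leaving out each array gave 1283 to 1814 higher and 1840 to 2743 lower, the fewest lower without Spdef +/+ replicate 1. The log2 difference of Ackr1, never called, ran from -0.015 (without Spdef +/+ replicate 1) to 0.43 over the fits without 1 array. For other changes the cause was not tested. Spdef +/+ signals near background limit the folds of Ppbp, Cxcl2, Cxcl3, Cxcl5, Csf3r and Cxcr2.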

Other observations

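Among the tested genes outside the set whose log2 signal followed that of Ppbp most closely over the 6 arrays were Vcl, Pycard, Ctps and Serpinb3a, with Pearson r of 0.998 to 0.999. The arrays fall into 2 separate groups, and 780 genes had an r over 0.95, so the measure mostly ranks how evenly genes split the groups. Vcl, the vinculin gene, had signals of 1707, 1705 and 1774 in Spdef +/+ and of 2591, 2496 and 2476 in Spdef -/-. Pycard, the inflammasome adaptor gene, had 3462, 3371 and 3582 and then 5218, 5155 and 5036, a call that was lost when its probe sets were averaged (adjusted p = 0.0587). Serpinb3a, a serine protease inhibitor gene of squamous epithelium, had 1178, 1078 and 1400.1 and then 5111, 5042 and 4518.

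Beyond Mthfd2l on the Cxcl2 side of the ligand cluster lie genes of EGF receptor ligands, looked at after their values were seen. Areg had signals of 188, 168 and 186 in Spdef +/+ and of 394, 486 and 292 in Spdef -/-, a log2 difference of 1.09 ± 0.18 (SE, limma adjusted p = 0.00520). Epgn and Ereg were higher by 0.80 and 0.61 on the log2 scale (limma adjusted p = 0.00794 and 0.0115), and Btc was not called (0.28, adjusted p = 0.427). For these 3 genes replicate 1 was not uniformly the highest Spdef -/- array, since it was for Ereg and replicate 2 was for Areg and Epgn.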
